A study of Homo sapiens with 24 samples.

Results

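The 12 h change in doxycycline was examined in 6 neuroblastoma cultures by setting the 12 h array of each culture against the 0 h array of the same culture. The arrays were taken by their labels alone, 1 per culture and time, which gave 12 of the 24 samples of the series. The series holds mRNA profiles of 3 established human neuroblastoma lines, SK-N-BE(2), IMR-32 and CHP-212, each carrying a FOXP1 or a GFP transgene and sampled at 0, 12, 24 and 72 h of doxycycline. The groups were therefore IMR-32 GFP, IMR-32 FOXP1, CHP-212 GFP, CHP-212 FOXP1, SK-N-BE(2) GFP and SK-N-BE(2) FOXP1, before the drug and after 12 h in it. All 6 were polyclonal cultures with the same doxycycline-inducible promoter, and all 6 received doxycycline, the GFP controls included. The study names leakage of this promoter as its reason for GFP controls. A change common to the 6 cultures may thus come with the drug, with time in culture or with the handling of the 12 h samples, and these cannot be told apart, because cultures without doxycycline were not analysed here. The 4 arrays of a line at 0 and 12 h lay on 1 slide, with both 0 h arrays ahead of both 12 h arrays, so time and place on the slide cannot be told apart either.

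Doxycycline is a tetracycline antibiotic that switches on tetracycline-dependent promoters and, in mammalian cells, also binds mitochondrial ribosomes and slows the synthesis of the proteins encoded by mitochondrial DNA. FOXP1 is a forkhead transcription factor, mostly a repressor, and GFP is a jellyfish protein with no known target in human cells. Neuroblastoma arises from the sympathoadrenal lineage of the neural crest, and noradrenergic lines express neuronal cytoskeletal genes and enzymes of catecholamine synthesis.

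A level is the log2 of the scanner's background-corrected signal of a probe minus the 75th percentile of that array, and a 12 h change is the 12 h level minus the 0 h level of the same culture. Of 43291 probes, 33015 (76.3%) were well above background, by the scanner software's own flag, on at least 6 of the 12 arrays and were tested with limma on the 6 differences. This test takes the 6 as independent, although both cultures of a line share the line and a slide. A probe was called at a Benjamini-Hochberg adjusted p under 0.05. Only 2349 tested probes (7.11%) could be given a gene symbol, from a list of the study that pairs probes with symbols. The study put probes on that list for their behaviour in FOXP1 and GFP cultures, so the named genes are not a random sample of the array. Detection differed between slides: 53.9% to 60.5% of probes were well above background on the 4 CHP-212 arrays, and 73.6% to 82.3% on the other 8. The 0 h array of CHP-212 FOXP1 was the dimmest, with 53.9% and a 75th percentile signal of 398, against 826 to 1796 on the other 11.

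Of 16 noradrenergic neuroblastoma genes with a named probe, 8 were well above background on all 12 arrays, among them CYB561, GAP43, NEFL, PRPH, RET, STMN2 and TH. The other 8, with CHGB, DBH and DCX among them, were so on 7 to 9 arrays. The summed level of these 16 probes, relative to the 75th percentile, went from 42.1 in CHP-212 GFP to 344.9 in SK-N-BE(2) GFP at 0 h and from 43.7 to 378 in the same cultures at 12 h. Of 16 genes of leukocytes, endothelium, keratinocytes and fibroblasts, 3 had the flag on none of the 12 arrays (PTPRC, CD48 and KRT5), 4 had it on all (COL6A2, DCN, FMOD and PDGFRA) and 9 on 1 to 8, including the leukocyte genes CD52 and LCP1.

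The target gene was examined next, as a check of the transgene label. The FOXP1 probe stood at 1.05 in IMR-32 GFP and 2.60 in IMR-32 FOXP1 at 0 h, at 0.77 in CHP-212 GFP and 2.81 in CHP-212 FOXP1, and at 3.00 in SK-N-BE(2) GFP and 2.97 in the SK-N-BE(2) culture labelled FOXP1. Its 12 h change was 0.14 and 0.16 in IMR-32 GFP and FOXP1, 0.44 and 0.47 in CHP-212 GFP and FOXP1, and 0.30 and -0.13 in SK-N-BE(2) GFP and the SK-N-BE(2) culture labelled FOXP1. In IMR-32 and CHP-212 the FOXP1 culture was already above the GFP culture at 0 h, while the arrays of SK-N-BE(2) do not show more FOXP1 signal in the culture with that label. Over the 6 cultures the mean change of the probe was 0.23 (SE 0.12, limma adjusted p = 0.492), and the FOXP1 minus GFP difference in that change was -0.13 (95% interval -0.75 to 0.49, adjusted p = 0.936). The sign of this last difference is not fixed, since it was 0.026 with IMR-32 and CHP-212 alone.

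The change shared by all cultures was then tested. It was almost entirely a fall. Of the 33015 probes, limma called 859 (2.60%), of which 835 (2.53%) were lower and 24 (0.0727%) were higher at 12 h. At 2-fold or more, 498 (1.51%) were called, 495 of them lower. The 835 lower probes had a median change of -1.09 (quartiles -1.35 and -0.86), against 0.02 for all tested probes, and 811 of them (97.1%) were lower in each of the 6 cultures. A single sign in 6 of 6 cultures was found for 8.77% of all tested probes. The 24 higher probes had a median change of 0.76, and all 24 were higher in 6 of 6 cultures, dim arrays included. With normexp, another background correction, their median change was 0.31, and that of the lower probes -0.84. In that setting the median level of the higher set in CHP-212 FOXP1 went from -1.93 at 0 h to -2.28 at 12 h. Well above background on all 12 arrays were 9 of the higher and 465 of the lower probes. The probe with the deepest fall, UKv4_A_32_P121326, went from levels between -1.51 and 0.69 at 0 h to levels between -6.19 and -3.26 at 12 h, a mean change of -3.73 (SE 0.29, limma adjusted p = 0.000876), with 1 of its 12 h arrays not well above background. UKv4_A_24_P221154, called higher (limma adjusted p = 0.0072), was too dim for the flag on the 4 CHP-212 arrays of 0 and 12 h, and its change in the 4 measured cultures lay between 0.62 in IMR-32 FOXP1 and 1.36 in SK-N-BE(2) FOXP1.

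The number of called probes depended on which cultures were kept. Leaving out 1 culture left 437 called probes without IMR-32 GFP, 563 without IMR-32 FOXP1, 543 without CHP-212 GFP, 440 without SK-N-BE(2) GFP, 360 without SK-N-BE(2) FOXP1 and 1234 without CHP-212 FOXP1. With the line IMR-32 or SK-N-BE(2) left out, 67 and 38 probes were called. Pairing mattered too, as 72 probes were called when the arrays were compared without the culture as a block. With 1 mean per line, which does not take both cultures of a line as independent, 377 were called, and with slide as a random block 656. All 859 probes kept their direction in each of these fits. This is largely built in, because 811 of the 835 lower and all 24 higher probes had 1 sign in 6 of 6 cultures.

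Among the 835 lower probes 17 had a symbol, and 7 of these were lower in 6 of 6 cultures and well above background on all 12 arrays. SEC31B, a homologue of a coat protein of vesicles leaving the endoplasmic reticulum, had the largest change of the named genes. Its level was -1.13, -0.13 and 1.23 (lowest, median and highest culture) at 0 h and -3.35, -1.50 and -0.42 at 12 h. In each culture the 12 h array was the lower of the pair, although the ranges of both times overlap because the lines start at different levels. The mean change was -1.77 (SE 0.17, limma adjusted p = 0.00171). GOLGA8A, a member of the golgin family of Golgi proteins, stood between -1.30 and 1.62 with a median of -0.62 at 0 h and between -2.01 and -0.32 with a median of -1.79 at 12 h. It fell in 6 of 6 cultures by 1.26 on average (SE 0.16, limma adjusted p = 0.00525), least in CHP-212 FOXP1 (-0.71) and most in IMR-32 GFP (-1.93). PDIA2, a disulfide isomerase of the endoplasmic reticulum, stood between -1.79 and 0.24 (median -0.83) at 0 h and between -3.55 and -0.82 (median -1.99) at 12 h. Its change of -1.26 (SE 0.14, limma adjusted p = 0.0029) was negative in all 6 cultures, from -0.87 in IMR-32 FOXP1 to -1.76 in SK-N-BE(2) FOXP1.

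PRRT2, a presynaptic membrane protein that takes part in transmitter release, stood between 0.97 and 4.31 (median 1.88) at 0 h and between -0.11 and 2.85 (median 0.83) at 12 h. It was highest in both SK-N-BE(2) cultures at both times, and it fell in all 6 cultures by 1.22 on average (SE 0.14, limma adjusted p = 0.00344). SLC4A8, a sodium-driven chloride and bicarbonate exchanger, had the most even change of the 7, from -0.80 in CHP-212 FOXP1 to -1.31 in IMR-32 FOXP1 around a mean of -1.02 (SE 0.12, limma adjusted p = 0.00345). Its levels were between -3.07 and -0.28 (median -0.95) at 0 h and between -3.94 and -1.51 (median -2.05) at 12 h. ADAM8, a membrane-bound metalloprotease, changed by -1.29 (SE 0.18, limma adjusted p = 0.00745), from levels between -2.12 and -0.27 (median -1.82) at 0 h to levels between -3.47 and -1.12 (median -3.01) at 12 h. CHP-212 FOXP1, with -2.15, lay below the other cultures for ADAM8. ASAP1-IT1, a transcript from an intron of ASAP1, changed by -1.21 (SE 0.26, limma adjusted p = 0.0452) with a wide spread, from -2.33 in SK-N-BE(2) GFP to -0.03 in CHP-212 FOXP1. Of 21 alternative fits, SEC31B, ADAM8, PDIA2, GOLGA8A, PRRT2 and SLC4A8 were each called in 16 and kept their direction in 21, whereas ASAP1-IT1 was called in 6 and, of the fits with 1 culture left out, only in that without CHP-212 FOXP1. The calls of these 6 genes were lost without the line IMR-32, without the line SK-N-BE(2), without the pairing and in the cultures of either transgene alone.

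**Figure D1:**
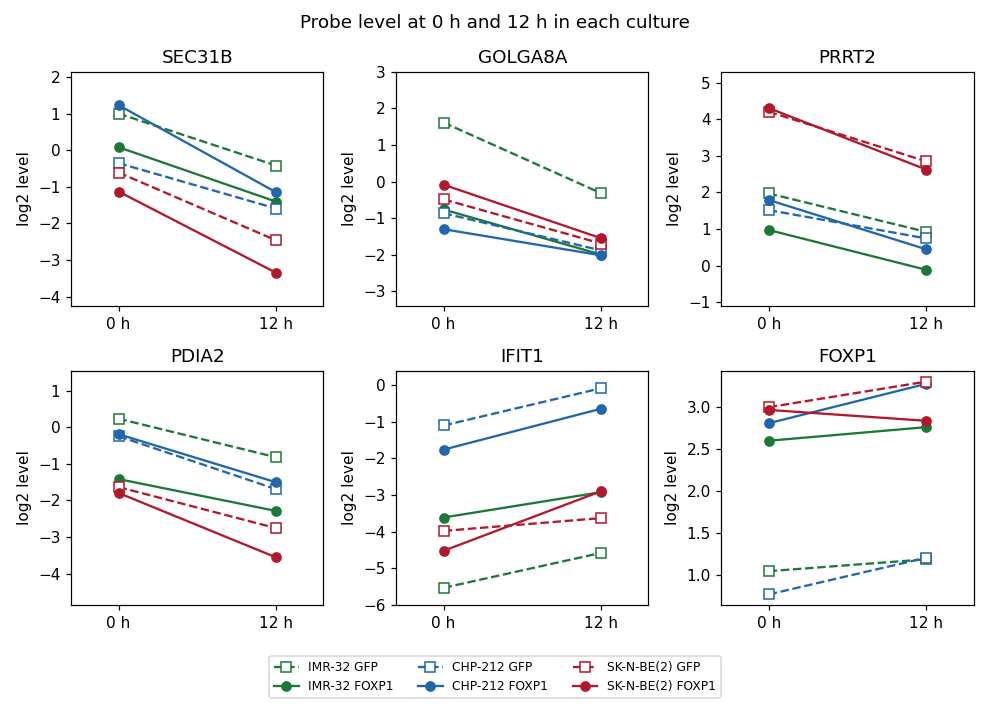
Level of the probes for 6 genes (log2 of the processed signal minus the array's 75th percentile) at 0 and 12 h, with 1 line per culture, colour for the cell line, filled circles for FOXP1 and open squares for GFP cultures. SEC31B, GOLGA8A, PRRT2 and PDIA2 go down and IFIT1 goes up in 6 of 6 cultures, while the change of FOXP1 lies between -0.13 and 0.47.

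The other 10 named probes of the lower set were chosen for mention after their values were seen, because they were not well above background on every array. They were LOC389332, NANOG, WDR27, GREB1L, SNX29P2, DUSP5P1, NEAT1, NPW, AGPAT4-IT1 and KDM4C, all with a lower level at 12 h in 6 of 6 cultures, dim ones included. Of 20 alternative fits each, WDR27 was called in 15, GREB1L in 12, NANOG in 11, NEAT1 in 8, DUSP5P1 and KDM4C in 6, SNX29P2 in 5 and AGPAT4-IT1 in 2. LOC389332 was well above background on 5 arrays at 0 h and 1 at 12 h and NPW on 4 and 2. Both thus entered the test through their 0 h arrays, and neither a size nor a count of calls is given for them. The other mean changes, which include values from dim arrays, lay between -1.49 for NANOG and -0.62 for KDM4C. NEAT1, the long non-coding RNA around which nuclear paraspeckles form, stood at 1.80 and 1.89 in CHP-212 GFP and FOXP1, at -0.25 and -0.89 in SK-N-BE(2) GFP and FOXP1 and at -2.32 in IMR-32 FOXP1 at 0 h. At 12 h these 5 cultures stood at 0.71, 0.55, -1.85, -2.47 and -3.19, and in IMR-32 GFP the probe was not well above background at either time. NEAT1 was thus lower at 12 h in each culture where it could be measured, with a mean change over the 6 of -1.11 (SE 0.19, limma adjusted p = 0.0207). KDM4C, a histone demethylase, had a small and even fall, between -0.83 and -0.44 in the 6 cultures (mean -0.62, SE 0.11, limma adjusted p = 0.0229). The call of KDM4C was kept only without CHP-212 FOXP1 when 1 culture was left out, and that of NEAT1 without IMR-32 GFP or CHP-212 FOXP1.

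The lower probes were unevenly spread over the groups of probes that the array's identifiers mark. Of tested probes whose identifier holds A_23, the lower set took 1.29% (197 of 15300), of those with A_24 2.62% (277 of 10572), of those with A_32 5.41% (314 of 5803), and of those with Hs 3.63% (47 of 1294). These groups also differ in level, with a 0 h median of -0.94 for A_23, -1.87 for A_24, -2.65 for A_32 and -2.99 for Hs. A link between level and share was not tested. The share with a symbol was 10.8% for A_23 and 3.48% for A_32. Most named genes thus come from A_23, which had the smallest share of lower probes among these 4 groups.

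The shared increase was small and had few named members. IFIT1, an interferon-induced protein that binds foreign RNA, stood at -5.54, -3.80 and -1.10 (lowest, median and highest culture) at 0 h and at -4.58, -2.91 and -0.08 at 12 h. Both CHP-212 cultures had the highest and IMR-32 GFP the lowest level at both times, and all 6 cultures were higher at 12 h, by 0.35 in SK-N-BE(2) GFP up to 1.63 in SK-N-BE(2) FOXP1. The mean change was 0.96 (SE 0.17, limma adjusted p = 0.02), or 1.95-fold. HYKK, a hydroxylysine kinase, changed by 0.73 (SE 0.12, limma adjusted p = 0.0168), with levels between -3.96 and -1.87 (median -3.26) at 0 h and between -3.19 and -1.38 (median -2.35) at 12 h. GCA, the calcium-binding protein grancalcin, changed by 0.58 (SE 0.12, limma adjusted p = 0.0405), and its level in IMR-32 FOXP1 (-6.70 at 0 h and -6.11 at 12 h) lay far below that of the other cultures. Fewer fits called these genes than called the 6 stable falls above. IFIT1 was called in 11 of 21 alternative fits, HYKK in 10 and GCA in 2, and the call of IFIT1 was lost without IMR-32 GFP (limma adjusted p = 0.0759), CHP-212 GFP (0.0603) or SK-N-BE(2) FOXP1 (0.0665). It was also lost with normexp, another background correction, on the median spot signal, where the change was 0.53. The call of HYKK was lost with any culture but CHP-212 FOXP1 left out, and that of GCA with any culture left out.

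The remaining named members of the higher set were called but were dim on several arrays. PPP1R1C, an inhibitor of protein phosphatase, was well above background on 2 of 6 arrays at 0 h and 5 of 6 at 12 h, and COL8A2, a chain of type VIII collagen, on 2 and 4. Both thus entered the test through the 12 h arrays on which they are higher, and neither a size nor a p is given for them. TCF7L1, a transcription factor of the Wnt pathway, had a mean difference of 0.75 (SE 0.16, limma adjusted p = 0.0488), with 4 and 5 such arrays, so that its size includes levels of dim arrays. All 3 calls were lost with normexp, where the mean difference of TCF7L1 was 0.19. With 1 culture left out, the call of TCF7L1 was kept only without CHP-212 FOXP1.

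Promoter sequences of the genes that moved together are shown so that their letters can be read beside the changes. RefSeq windows of 300 bases, 250 before and 50 after a gene's start, were used for 10 of the 13 genes named above by rule, 14 windows in all. For these genes the windows of 1 chromosome were left out. The windows used were searched on both strands for 7 motifs. These were the interferon-stimulated response element, whose letters are the capitals in the windows of IFIT1 and GCA below, and GTAAACA (forkhead), TGACGTCA (cyclic AMP response element), TGANTCA (AP-1), CACGTG (E-box), TGATGCAA (ATF4) and GAANNTTC (heat shock element). The interferon motif was chosen after the change of IFIT1 was seen. Of all 35116 windows, 3.57% held the interferon motif, 3.42% the forkhead motif, 1.85% the cyclic AMP motif, 7.71% AP-1, 7.26% the E-box, 0.866% ATF4 and 6.77% the heat shock motif. The windows below are from GRCh38.p14, 5′ to 3′ on the gene's strand, with matches in capitals. They are those of IFIT1 (chr10:89392373-89392672, + strand, 2 interferon matches), of 1 of the 4 starts of GCA (chr2:162318732-162319031, + strand, 2 overlapping interferon matches), of PDIA2 (chr16:282914-283213, + strand, 1 E-box) and of SEC31B (chr10:100519812-100520111, - strand, no match).
IFIT1: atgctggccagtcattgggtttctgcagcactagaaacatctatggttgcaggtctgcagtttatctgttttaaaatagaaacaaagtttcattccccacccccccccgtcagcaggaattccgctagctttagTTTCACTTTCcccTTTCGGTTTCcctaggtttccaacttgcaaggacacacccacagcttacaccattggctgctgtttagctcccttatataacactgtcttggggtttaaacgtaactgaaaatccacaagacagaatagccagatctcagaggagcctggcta
GCA: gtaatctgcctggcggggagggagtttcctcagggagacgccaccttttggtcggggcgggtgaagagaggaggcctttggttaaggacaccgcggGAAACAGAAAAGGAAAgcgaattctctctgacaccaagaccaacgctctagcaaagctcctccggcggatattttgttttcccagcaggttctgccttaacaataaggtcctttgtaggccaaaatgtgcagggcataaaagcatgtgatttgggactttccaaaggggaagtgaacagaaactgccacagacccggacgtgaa
PDIA2: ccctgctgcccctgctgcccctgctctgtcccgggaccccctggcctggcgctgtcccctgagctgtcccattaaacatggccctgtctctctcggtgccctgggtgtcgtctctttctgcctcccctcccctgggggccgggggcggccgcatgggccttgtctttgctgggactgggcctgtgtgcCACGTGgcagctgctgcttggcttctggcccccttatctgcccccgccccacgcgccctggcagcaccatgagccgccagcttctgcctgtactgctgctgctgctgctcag
SEC31B: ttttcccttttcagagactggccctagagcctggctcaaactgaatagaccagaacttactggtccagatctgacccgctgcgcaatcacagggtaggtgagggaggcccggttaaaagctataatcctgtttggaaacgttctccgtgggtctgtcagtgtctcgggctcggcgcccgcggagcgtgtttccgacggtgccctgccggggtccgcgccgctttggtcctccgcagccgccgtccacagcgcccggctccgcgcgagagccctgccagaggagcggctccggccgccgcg
Of the 10 genes whose windows were used, 3 held any of the 7 motifs, namely IFIT1, GCA and PDIA2. Of the 4 windows of GCA, 2 hold an interferon match and 2 do not. The window of HYKK, the other gene of this set that was bright on all 12 arrays and higher at 12 h, held none of these letters. A match is a description of the letters and was not tested as a binding site.

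FOXP1 and GFP cultures were then compared within each line. The median change of the 835 lower probes was -1.09 in GFP and -1.06 in FOXP1 cultures, and that of the 24 higher probes 0.83 and 0.73. The SK-N-BE(2) culture labelled FOXP1, which had no more FOXP1 signal than its GFP partner, is counted here by its label. In IMR-32 and CHP-212 alone the medians were -0.98 in GFP and -0.95 in FOXP1 cultures for the lower probes, and 0.89 and 0.72 for the higher ones. Over all 3 lines, among the lower probes the FOXP1 minus GFP difference had a median of 0.02 and was above 0 for 438 of 835. Of the 33015 probes, limma called 0 for this difference, with 793 at an unadjusted p under 0.05 and a smallest adjusted p of 0.907. The call favours probes with an even change over the 6 cultures, so a small difference within the called set is partly built in. With 3 lines and 1 culture of each transgene per line the test has little precision, the median SE of the difference being 0.28. SEC31B had a mean change of -1.51 in GFP and -2.03 in FOXP1 cultures (difference -0.52, 95% interval -1.26 to 0.22). For PRRT2 these means were -1.06 and -1.37 (difference -0.31, interval -0.93 to 0.31), for SLC4A8 -1.02 and -1.02 (difference 0.0033, interval -0.61 to 0.62), and for IFIT1 0.77 and 1.15 (difference 0.37, interval -0.51 to 1.26). Differences of other sign or size in the same set were 0.25 for GOLGA8A (interval -0.46 to 0.95), 0.45 for ASAP1-IT1 (-0.55 to 1.46), -0.37 for ADAM8 (-1.31 to 0.56), -0.11 for PDIA2 (-0.80 to 0.59), -0.25 for HYKK (-0.83 to 0.33) and 0.27 for GCA (-0.36 to 0.90). Each of these intervals includes 0, and each also allows a difference of more than 0.5 in at least 1 direction. Without SK-N-BE(2) the differences were -0.60 for SEC31B (SE 0.44), -0.31 for PRRT2 (SE 0.39), -0.10 for SLC4A8 (SE 0.38), -0.081 for IFIT1 (SE 0.38), 0.50 for GOLGA8A (SE 0.38) and 0.16 for PDIA2 (SE 0.37), so that the sign of SLC4A8, IFIT1 and PDIA2 turns with that line.

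**Figure D2:**
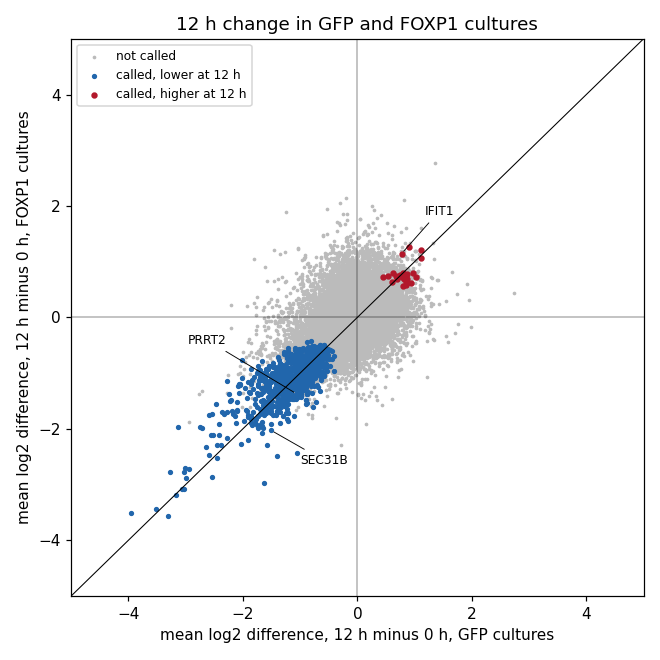
Mean 12 h minus 0 h log2 difference of each of the 33015 tested probes in the 3 GFP cultures (x axis) and the 3 FOXP1 cultures (y axis), with called probes in blue (lower) and red (higher) and the line of equal change. The 835 lower probes lie along the line, with medians of -1.09 and -1.06, and both axes use values that entered the call.

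The named genes with the smallest p for a transgene difference, of those with the same sign in each line, were not called. DKFZp434L192 changed by -1.53 in IMR-32 GFP, -2.85 in CHP-212 GFP and -0.46 in SK-N-BE(2) GFP, and by 0.99, 0.66 and 1.05 in the FOXP1 cultures of these lines (difference 2.51, limma adjusted p = 0.907). FILIP1, a filamin-binding protein, had a difference of 3.15 and the same adjusted p, with the 12 h arrays of IMR-32 GFP and SK-N-BE(2) GFP and the 0 h array of SK-N-BE(2) FOXP1 dim. MEI1 and PLEK2 had differences of -1.27 and -1.59 (limma adjusted p = 0.907 for each). None of these 4 probes was well above background on all 12 arrays, and for DKFZp434L192 both CHP-212 FOXP1 arrays were dim, so its sign in that culture is not measured, and in CHP-212 GFP the 12 h array was dim, so the fall there is measured in direction only. The sizes of all 4 include levels of dim arrays. With IMR-32 and CHP-212 alone the differences were 3.01 for DKFZp434L192, 2.38 for FILIP1, -1.15 for MEI1 and -1.16 for PLEK2, none of them called by limma (0 of all probes, 944 at an unadjusted p under 0.05).

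Lines were compared next. The set was called on all 6 cultures, so its fall in each restates the call, and the sizes were a median of -0.995 in IMR-32 GFP, -1.01 in IMR-32 FOXP1, -0.99 in CHP-212 GFP, -0.86 in CHP-212 FOXP1, -1.30 in SK-N-BE(2) GFP and -1.26 in SK-N-BE(2) FOXP1. To read a line that took no part in the call, the lower set was called again in the other 2 lines. The 67 probes called lower without IMR-32 had a median change of -1.31 in IMR-32 GFP and -1.65 in IMR-32 FOXP1, with 67 and 66 of them below 0. Of all tested probes 44% and 45.4% were below 0 in these cultures. The 36 called without SK-N-BE(2) had -2.30 in SK-N-BE(2) GFP and -2.32 in SK-N-BE(2) FOXP1, with 34 and 36 below 0, against 48.7% and 50.2% of all tested probes. The 1079 called without CHP-212 had -0.88 in CHP-212 GFP and -0.41 in CHP-212 FOXP1, with 88.9% and 77.8% below 0, against 51.5% and 60.1% of all tested probes. Each line thus shows lower levels at 12 h for probes that were picked in the others, and these 3 sets differ, so their sizes do not rank the lines. In a left-out line, too, both 0 h arrays lay ahead of both 12 h arrays, so time and place cannot be told apart. The spread of the changes over all probes was largest in CHP-212 FOXP1 (SD 0.77), the culture with the dimmest 0 h array, and between 0.48 and 0.58 in the other 5 cultures. Across the 33015 probes the changes of both cultures of a line had a median Pearson correlation of 0.44 over the 3 lines (0.10 to 0.46). For cultures of different lines the median was 0.19 over the 6 pairs with the same transgene and 0.23 over the 6 pairs with different ones. Cultures of a line share a slide, probes are not independent replicates, and no p is given for these correlations.

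Tested with 1 mean per line, limma called 295 probes in SK-N-BE(2) (0.894%), 290 of them lower and 5 higher. It called 1 probe in IMR-32 (4905 at an unadjusted p under 0.05) and 0 in CHP-212 (4177 unadjusted). These unequal counts do not show that the lines differ, because limma called 0 probes for each difference between lines, with 4019 at an unadjusted p under 0.05 for IMR-32 against CHP-212, 2586 for IMR-32 against SK-N-BE(2) and 1958 for CHP-212 against SK-N-BE(2). They also moved with the processing, with 0 called in SK-N-BE(2) and 195 in CHP-212 after quantile normalization. With the transgene as a further term 0 were called in each line, and the unadjusted counts were 4464 for IMR-32, 2812 for SK-N-BE(2) and 4045 for CHP-212. The probe called in IMR-32, UKv4_A_32_P17145, has no symbol here, changed by -3.47 in IMR-32 GFP and -3.81 in IMR-32 FOXP1 and was picked after its values were seen.

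In SK-N-BE(2) the called falls of largest size among named genes bright on all 12 arrays were those of SEC31B (-2.04, limma adjusted p = 0.0432), PRRT2 (-1.52, limma adjusted p = 0.0436) and PDIA2 (-1.44, limma adjusted p = 0.0484), each lower in both cultures. PIK3C2G, a class II phosphoinositide 3-kinase, stood at -8.70 and -8.96 in SK-N-BE(2) GFP and FOXP1 at 0 h, not well above background, and at -3.79 and -3.40 at 12 h, well above it. Its level was back below -7 at 24 and 72 h in both SK-N-BE(2) cultures. PIK3C2G reached the 6 arrays that the filter asks for only through these 2 bright arrays, so its p is not given. It was at least 8.83-fold higher at 12 h, where such a bound sets the mean of the bright group against the mean, over the dim group's arrays, of the higher of the probe's own level and the lowest level among probes well above background on that array. In CHP-212, where PIK3C2G was bright at both times, it stood at 1.08 and -1.47 in GFP and FOXP1 at 0 h and at 1.20 and 0.21 at 12 h. The call of PIK3C2G was lost with quantile normalization, with the transgene as a term and with normexp, where its change was 1.23. CACNG1, a calcium channel subunit, had a change of 1.11 in SK-N-BE(2) that was not called (limma adjusted p = 0.0881) and was 0.25 with normexp.

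In IMR-32 and CHP-212 no named gene passed. The smallest p in IMR-32 were those of SST, the precursor of somatostatin, SLC12A8 (limma adjusted p = 0.0882), GOLGA8A (-1.58, 0.0946) and IQCF2 (-1.27, 0.0977). SST was at least 1.19-fold higher at 12 h. It was tested only because both IMR-32 arrays of 12 h were bright, so its p is not given. SLC12A8 was higher at 12 h in IMR-32 GFP, but 3 of 4 arrays were dim, so no size is given. Both of its IMR-32 FOXP1 arrays were dim, so its sign there is not measured. In CHP-212 they were those of NRXN2, a presynaptic adhesion protein (limma adjusted p = 0.0704), STAU2, at least 1.26-fold higher (0.076), ACTG2, a smooth muscle actin (-1.60, 0.0738), and PRKCH, at least 2.24-fold lower (0.0738). For NRXN2, 3 of 4 arrays were dim, so no size is given. It was higher at 12 h in CHP-212 GFP. Both of its CHP-212 FOXP1 arrays were dim, so its sign there is not measured. The bounds are given where neither array of the line at 1 time, and both at the other, were well above background. With normexp the changes of SST and SLC12A8 in IMR-32 turned to -0.15 and -0.051, and that of STAU2 in CHP-212 was 0.14. In other fits GOLGA8A in IMR-32 (limma adjusted p = 0.0165) and ACTG2 in CHP-212 (0.0306) passed with normexp, and NRXN2 (0.0327) after quantile normalization. In all, GOLGA8A and ACTG2 were each called in 2 of 4 alternative fits there, and NRXN2 in 1 of 3.

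The 24 h and 72 h arrays took no part in the call. They lie on other slides than the 0 h and 12 h arrays, so a step from 12 to 24 h crosses slides, and in CHP-212 detection was 78.0% to 81.5% on them. The median level of the lower set in IMR-32 GFP was -1.78, -2.83, -1.62 and -1.43 at 0, 12, 24 and 72 h, and in IMR-32 FOXP1 -1.68, -2.88, -1.56 and -1.54. In CHP-212 GFP it was -2.05, -3.23, -1.65 and -1.55, and in CHP-212 FOXP1 -2.10, -3.04, -1.59 and -1.46. In SK-N-BE(2) GFP it was -1.74, -3.23, -1.77 and -1.58, and in SK-N-BE(2) FOXP1 -1.86, -3.24, -2.11 and -1.67. In all 6 cultures the 12 h array was the lowest of the 4, and this held for the median of the set under normexp, quantile and median scaling and with the authors' own processed values. Because the set was picked for low 12 h levels, the sets called in the other 2 lines were read here too. Their median step from 12 to 24 h was 1.51 in IMR-32 GFP, 1.73 in IMR-32 FOXP1, 1.24 in CHP-212 GFP, 1.17 in CHP-212 FOXP1, 2.48 in SK-N-BE(2) GFP and 2.34 in SK-N-BE(2) FOXP1, against -0.08 to 0.17 over all tested probes. Slide and time cannot be told apart in this step. The median of the higher set was highest at 12 h in 1 of the 6 cultures, as it was with normexp. It was so in 3 with quantile normalization, with median scaling and with the authors' values.

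**Figure D3:**
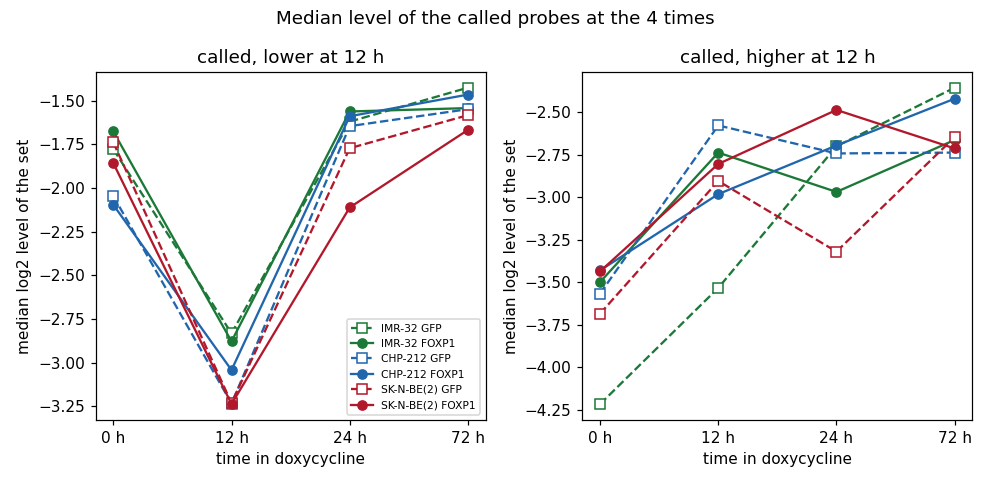
Median log2 level of the 835 lower probes (left) and the 24 higher probes (right) in each culture at 0, 12, 24 and 72 h, with equal spacing of the times. In the left panel the 12 h value is the lowest of each culture, between -3.24 and -2.83.

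Single probes, chosen here after their values were seen, show the course. The probe with the deepest fall, UKv4_A_32_P121326, had levels between -1.16 and -0.02 at 24 h, above every 12 h level. SEC31B was at 1.72, 0.88, 0.70 and 0.91 in IMR-32 GFP, IMR-32 FOXP1, CHP-212 GFP and CHP-212 FOXP1 at 24 h, but still at -1.80 and -3.12 in SK-N-BE(2) GFP and FOXP1. At 72 h it was at -0.07 and -0.95 in these last cultures. PRRT2 in SK-N-BE(2) FOXP1 was likewise at 2.54 at 24 h, near its 12 h level of 2.62, and at 4.48 at 72 h.

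The 24 h to 72 h interval is set beside the 0 h to 12 h interval, because the 24 h and 72 h arrays had the places on their slides that the 0 h and 12 h arrays had on theirs. An effect of place that differs between slides would remain in this comparison and was not tested. Of the same 33015 probes limma called 0 for 72 h against 24 h, with 3069 at an unadjusted p under 0.05. The 835 lower probes had a median change of 0.12 in this interval, against -0.04 for all tested probes, and -0.07 with normexp, where all probes stood at -0.19. Tested as the 12 h minus 0 h change less the 72 h minus 24 h change of the same culture, limma called 603 probes (1.83%), 568 negative and 35 positive. This count fell to 17 with normexp, to 246 without the filter on dim probes and to 170 without CHP-212, the last chosen after seeing the data. It was 228 without IMR-32 GFP, 352 without IMR-32 FOXP1, 340 without CHP-212 GFP and 236 without SK-N-BE(2) GFP. GOLGA8A had a difference of -2.18 (SE 0.32, limma adjusted p = 0.0119), negative in 6 of 6 cultures, with a change of 0.91 from 24 to 72 h. It was called in 11 of 13 alternative fits, the exceptions being normexp (0.0923) and the fit without IMR-32 GFP (0.0568). SEC31B (-2.37, limma adjusted p = 0.0254), PRRT2 (-1.77, limma adjusted p = 0.041) and IFIT1 (1.45, limma adjusted p = 0.0293) were called in 5, 3 and 5 of those 13, each in 6 of 6 cultures with 1 sign. Their changes from 24 to 72 h were 0.60, 0.55 and -0.49. HYKK (0.36, limma adjusted p = 0.407) and GCA (0.62, limma adjusted p = 0.119) were not called for this difference. Of the 835 lower probes 473 (56.6%) were called for it, and of the 24 higher ones 3 (12.5%), against 1.83% of all tested probes. Both sets were picked by the 12 h minus 0 h change that this difference contains. Their larger shares are thus largely built in, and 1.83% is no baseline for them. With 1 culture left out, SEC31B lost its call without IMR-32 GFP, CHP-212 FOXP1 or SK-N-BE(2) GFP, while PRRT2 kept it only without SK-N-BE(2) FOXP1 and IFIT1 only without SK-N-BE(2) GFP. TSLP, an epithelial cytokine, had a difference of 0.94 (limma adjusted p = 0.0178), was not well above background in SK-N-BE(2) at 0 and 12 h and, with 1 culture left out, kept its call only without CHP-212 FOXP1 or SK-N-BE(2) FOXP1. The shared change and this difference use the same 0 h and 12 h arrays, so the values of a gene in both are not independent of each other.

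Gene lists were written for what doxycycline, medium change or transgene expression could touch. Of 21 lists, 1 held a called increase, IFIT1 among 18 tested interferon response genes, and 1 a called fall, KDM4C among 17 hypoxia and glycolysis genes. In each of the other 19 limma called 0 members. All named probes held 6 called increases and 17 called falls among 2349, with a median change of 0.05. Of all 33015 tested probes 859 (2.60%) were called. At the share of the named probes, lists this short are likely to hold 0 called members, so these counts are not a result about any list. At an unadjusted p under 0.05 stood 13.2% of all tested probes (4358 of 33015) and 305 of the 2349 named ones, the share against which the counts of each list are to be read. The interferon genes had a median of 0.08 with 2 of 18 at such a p. IFI27, another of them, stood at -0.72 (SE 0.23, limma adjusted p = 0.183), a size that includes dim 12 h arrays in both CHP-212 cultures. For 21 mitochondrial protein genes the median was 0.02, with 11 above 0 and 2 at an unadjusted p under 0.05. For 11 genes of the ATF4 and amino acid response, which mitochondrial stress can raise, the median was 0.10, with 9 above 0 and 1 at an unadjusted p under 0.05. PCK2, the mitochondrial PEP carboxykinase, had the largest change of these, 0.44 (SE 0.13, limma adjusted p = 0.165), positive in 6 of 6 cultures.

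Growth and signalling lists gave values on either side of 0. The list of 26 immediate early and serum response genes had a median of -0.0003 (2 at an unadjusted p under 0.05), and that of 11 genes of SMAD and Wnt feedback -0.29 (2 unadjusted). In the latter SMAD7, the inhibitory SMAD, was negative in 6 of 6 cultures (mean -0.54, SE 0.12, limma adjusted p = 0.0588), as was ID3 (-0.38, SE 0.13, limma adjusted p = 0.243). The 11 S phase genes had a median of 0.28 (4 unadjusted), among them PRIM1, a primase subunit, at 0.48 (limma adjusted p = 0.142) and EZH2, the Polycomb methyltransferase, at -0.44 (limma adjusted p = 0.225). The 7 genes of G2 and mitosis had a median of 0.56 (2 unadjusted), with 0.17 in GFP and 0.76 in FOXP1 cultures. This rests on CHP-212 FOXP1, whose 0 h array was the dimmest of the 12 and whose own median was 1.86, and without it the list stood at 0.20 and its FOXP1 cultures at 0.21. The same culture moved the S phase list to 0.15 and that of SMAD and Wnt feedback to -0.15 when left out. KIF15 and DEPDC1, motor and cell cycle proteins, had changes of 2.17 and 2.79 in it. KNL1, a kinetochore scaffold, had a change of 4.91 in CHP-212 FOXP1, where its 0 h array was not well above background, and changes between -0.80 and 0.65 in the other cultures.

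The remaining lists lay near the median of all probes or held few genes. The medians were 0.13 for 19 genes of the FOXO and nutrient response (2 at an unadjusted p under 0.05), 0.05 for the 17 hypoxia and glycolysis genes (2), 0.13 for 7 p53 targets (0), 0.09 for 13 genes of the oxidative and metal response (2) and 0.13 for 6 clock and glucocorticoid genes (0). They were -0.06 for 9 histone genes (0) and -0.04 for 11 genes of ribosome biogenesis and MYC (0). For 6 genes of endoplasmic reticulum chaperones and related proteins, CDNF and KDELR3 among them, the median was -0.08 (2). It was -0.16 for 7 heat shock and chaperonin genes (1) and -0.09 for 7 genes of the retinoid and dioxin receptors (1). The metalloproteinase list held MMP1, MMP15 and the metalloproteinase inhibitor TIMP3, with a median of 0.17 (0 unadjusted). The mean change was positive for MMP15 and TIMP3 and negative for MMP1. For 2 genes of sterol and fatty acid synthesis the median was 0.10 (1 unadjusted). HSF4, a heat shock factor, came closest to a call among these, at -0.91 (SE 0.21, limma adjusted p = 0.0609), negative in 5 of 6 cultures. MT1X, a metallothionein, was at -0.42 (SE 0.12, limma adjusted p = 0.148).

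The list medians depended on single cultures. Without CHP-212 FOXP1 the median was 0.20 for the ATF4 and amino acid response, 0.0033 for the interferon genes, -0.067 for heat shock and chaperonins, 0.12 for mitochondrial proteins, 0.099 for hypoxia and glycolysis, 0.19 for sterol synthesis, 0.0088 for histones and -0.0005 for the noradrenergic genes. Without IMR-32 FOXP1 it was 0.024 for the ATF4 response, 0.041 for FOXO and 0.075 for clock and glucocorticoid genes. In the same fit it was 0.06 for the metalloproteinase list, -0.031 for the endoplasmic reticulum list and 0.05 for sterol synthesis. Without IMR-32 GFP it was 0.051 for FOXO, 0.10 for the genes of other cell types, -0.0096 for mitochondrial proteins and -0.092 for ribosome biogenesis and MYC. Without SK-N-BE(2) GFP it was -0.26 for heat shock, -0.099 for the immediate early genes, -0.017 for hypoxia and 0.034 for the retinoid and dioxin receptors, and without SK-N-BE(2) FOXP1 0.22 for clock and glucocorticoid genes. Only the p53 targets and the oxidative and metal response stayed within 1.5 times of their value in all 6 such fits.

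**Figure D4:**
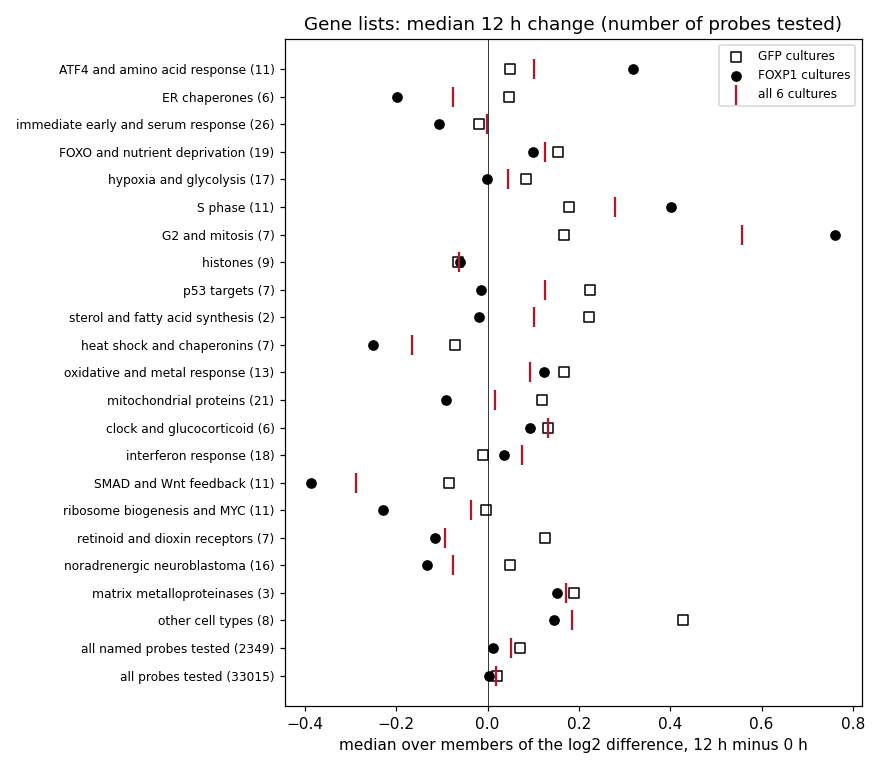
Median over the tested members of each list of the mean 12 h minus 0 h log2 difference, in GFP cultures (open squares), FOXP1 cultures (filled circles) and all 6 cultures (red bars), with the number of probes tested in brackets. The all-culture medians lie between -0.29 for SMAD and Wnt feedback and 0.56 for G2 and mitosis, against 0.02 for all probes.

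The cell type lists were compared between both times as well. The 16 noradrenergic genes had a median change of -0.08, with 0 called by limma and 2 at an unadjusted p under 0.05, those of SLC18A2 (-0.47, limma adjusted p = 0.303, 8 of 12 arrays well above background) and SLC6A2 (-0.40, limma adjusted p = 0.206, 8 of 12), both transporters of catecholamines, with sizes that include dim arrays. Of the 16 genes of other cell types, 8 were tested, 0 were called, 2 had an unadjusted p under 0.05, and the median was 0.19, with all 8 means above 0. Their summed level over 16 probes was 1.36, 3.05, 10.6, 14.6, 4.65 and 3.29 at 0 h and 1.91, 2.99, 13.5, 12.3, 6.24 and 4.37 at 12 h in IMR-32 GFP, IMR-32 FOXP1, CHP-212 GFP, CHP-212 FOXP1, SK-N-BE(2) GFP and SK-N-BE(2) FOXP1. The probe with the highest level at 0 h was that of PDGFRA in IMR-32, of DCN or FMOD in CHP-212 and of LCP1 in SK-N-BE(2), although levels of different probes are not on 1 scale of abundance. LCP1, an actin-bundling protein of leukocytes that tumour lines can express, was bright at both times in 3 cultures, with changes of 0.91 in IMR-32 FOXP1, 0.47 in SK-N-BE(2) GFP and 0.50 in SK-N-BE(2) FOXP1 (limma adjusted p over all 6 = 0.0665). The fibroblast gene DCN, bright on all 12 arrays, was at 0.42 (SE 0.13, limma adjusted p = 0.169), positive in 6 of 6 cultures. The part of other cells in the shared change was not tested.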

How the data were processed

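The deposited scanner files hold, per the file headers, probe intensity values that the authors' software had already corrected for background, with no normalization between arrays. From these processed signals, log2 levels were centred on the 75th percentile of each array, and spots flagged as outliers (170 on the 12 arrays) were left out, so that 97 tested probes had fewer than 6 differences. The number of arrays, 1 per culture and time, limits the precision. Probes flagged as bright on 6 or more of the 12 arrays were tested with limma 3.58.1 in R 4.3.3 (the submitters' processing notes also name limma), on paired differences, after a check on simulated data. Pairing followed the culture, whose arrays at 0 and 12 h share a slide. Transgene differences were fitted with the line as a term. Named were FOXP1 and up to 12 called genes per direction of the shared change (up to 3 elsewhere) with 1 symbol, 1 sign and full detection, filled to 6 (elsewhere 2) by p. Up to 4 members of a list were named too. Of 3503 probes with a symbol, 2101 were matched to RefSeq by accession, 1076 by symbol and 171 by an older symbol, and 155 kept the listed symbol. The members and lists were chosen with earlier results of these data known. Alternatives were normexp on the median signal, quantile and median scaling, the authors' processed value table (log2 of its values), other filters on dim probes, slide blocks, left-out cultures and lines, and the methods' t-test.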

Additional observations from a re-analysis of the deposited data

Results flagged for a closer look

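Of 50 groups of 6 values that were looked at for a value apart from the other 5, 5 had one, and chance gives about 1 in 20. The groups share the same 6 cultures and are not independent, and 4 of the 5 values are of CHP-212 FOXP1, whose 0 h array was the dimmest of the 12. WDR27 changed by -2.37 in CHP-212 GFP, apart from the other 5 cultures, with a 12 h array there that was not well above background, so that the size is not measured. In CHP-212 FOXP1 the median change of the hypoxia and glycolysis list (-0.36), of the G2 and mitosis list (1.86) and of the ribosome biogenesis and MYC list (-0.60) each stood apart from the other 5 cultures. The SD of the changes over all probes was 0.77 in the same culture, again apart from the rest. DKFZp434L192 had a positive value for the change in the 3 FOXP1 cultures and a negative one in the 3 GFP cultures, dim arrays included. It was listed for this pattern, and limma did not call its FOXP1 minus GFP difference of 2.51 (adjusted p = 0.907). Both of its CHP-212 FOXP1 arrays were not well above background, so the sign there is not measured, and its 12 h array of CHP-212 GFP was not either, so that fall is measured in direction only.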

How the results depend on the processing

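The 859 called probes of the shared change kept their direction in every alternative fit in which they were tested. In fits on fewer cultures or without the pairing this is largely built in, since most of these probes had 1 sign in all cultures. The count itself moved, and the cause was not tested. It was 1954 with normexp, 559 without the filter on dim probes, 377 with 1 mean per line, 67 without IMR-32, 38 without SK-N-BE(2), 8 in FOXP1 cultures alone and 0 by limma in GFP cultures alone (3908 at an unadjusted p under 0.05). With no replicate block, that is without the pairing by culture, it was 72. It was 498 at 2-fold or more, and the methods' t-test, unpaired, gave 470 at their fold threshold of 2 with an unadjusted p under 0.05, a p limit set here, and 64 after Benjamini-Hochberg. Leaving out 1 culture gave 360 to 1234. Quantile and median scaling, the authors' values, slide as a random block, line as a term, leaving out CHP-212 and asking for detection on all 12 arrays stayed within 1.5 times.

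Within lines, detection on all 12 arrays gave 97 called probes in IMR-32 and 51 in CHP-212, and normexp gave 428 for IMR-32, 457 for SK-N-BE(2) and 129 for CHP-212. Quantile normalization gave 0 by limma in IMR-32 (4186 unadjusted), 0 in SK-N-BE(2) (2507 unadjusted) and 195 in CHP-212. The transgene as a term gave 0 by limma in IMR-32 (4464 unadjusted) and 0 in SK-N-BE(2) (2812 unadjusted). The early minus late count was 17 with normexp, 246 without the filter, 170 without CHP-212 (an alternative chosen after seeing the data) and 228 to 459 with 1 culture left out. The transgene difference stayed at 0 calls by limma in each alternative, with 384 to 2550 at an unadjusted p under 0.05.

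Signs turned for the transgene difference of FOXP1, which was 0.0042 with quantile normalization, 0.011 with the authors' values and 0.026 with IMR-32 and CHP-212 only, for the transgene difference of IFIT1 (-0.081), SLC4A8 (-0.10), PDIA2 (0.16) and, dim at most 0 h arrays, COL8A2 and PPP1R1C with IMR-32 and CHP-212 only, and with normexp for SST (-0.15) and SLC12A8 (-0.051) in IMR-32. The median of the immediate early list was -0.18 with normexp, and that of the sterol list 0.44 with detection on all 12 arrays, where 1 gene was left. With 1 culture left out, list medians near 0 changed sign too: immediate early 0.050 without CHP-212 FOXP1 and 0.069 without CHP-212 GFP, histones 0.0088 without CHP-212 FOXP1, hypoxia -0.017 without SK-N-BE(2) GFP, mitochondrial -0.0096 without IMR-32 GFP and -0.0052 without SK-N-BE(2) FOXP1, and retinoid and dioxin 0.0053 without SK-N-BE(2) FOXP1 and 0.034 without SK-N-BE(2) GFP. Normexp also moved the median of all probes from 0.02 to -0.09.

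There was 1 array per culture and time, so no technical replicate bears on any value. The arrays of CHP-212 at 0 and 12 h had the fewest probes well above background, which limits dim probes there. Time and place on the slide cannot be told apart, and only 7.11% of tested probes have a symbol here.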
